A study of Mus musculus with 4 samples.

Results

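The cytosolic ribosomal protein genes encode the proteins of the 60S and 40S subunits of the ribosome that translates messages in the cytoplasm. Their rows were taken by name from a table of normalized read counts: Rpl or Rps followed by a number, and Rplp0, Rplp1, Rplp2 and Rpsa. S6 kinase genes, pseudogene names and names ending in l1 were left out. The rule found 75 of the 11747 rows, 42 for the large 60S subunit and 33 for the small 40S subunit. Of these, 74 are protein coding in the RefSeq annotation. The remaining row, Rps4y2, carries a noncoding RefSeq transcript that the same annotation calls a transcribed pseudogene under the symbol Rps4l.

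RNA sequencing covered 4 libraries from mouse embryonic stem cells differentiated towards motor neurons. Cultures with 2 µg/mL doxycycline gave libraries 2 and 8, and cultures with vehicle gave libraries 1 and 7, as numbered in the deposited table. All derive from the A172LoxP line, which was modified to carry a transcription factor transgene that the drug doxycycline switches on. In all 4 cultures, aggregates of cells (embryoid bodies) first received 0.5 µM retinoic acid and 1 µM purmorphamine, which activates Sonic hedgehog signalling, for 2 days. Doxycycline or vehicle followed for a further 2 to 3 days. The control cultures carry the same transgene, so the induced factor and doxycycline itself cannot be told apart. The labels do not state whether a group's libraries are separate cultures, so p-values reflect only how these libraries varied, possibly for technical reasons.

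Most ribosomal proteins occur in a single copy per ribosome, and their genes are expressed at high levels in growing cells. Most of their messages begin with a run of pyrimidines, the terminal oligopyrimidine or TOP motif, through which mTOR signalling controls how strongly they are translated. Several of the proteins also have duties off the ribosome, and loss of 1 gene copy of some of them causes Diamond-Blackfan anaemia in humans.

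Ribosomal protein messages made up a larger share of the counts in the listed rows with doxycycline. They took 7.25% of all normalized counts in library 2 (Wilson 95% interval 7.24 to 7.26) and 7.14% in library 8 (7.13 to 7.15), against 5.98% in library 1 (5.97 to 5.99) and 6.03% in library 7 (6.02 to 6.04). These intervals rest on estimated reads and cover counting error only. The groups did not overlap, and the libraries within a group lay closer to each other than to the other group. The share averaged 7.20% ± 0.0756 with doxycycline and 6.01% ± 0.0381 without (SD, n = 2 each), a ratio of 1.20. An exact two-sided permutation test gave p = 0.333, the smallest value that 2 against 2 libraries allow. In bulk RNA, fewer cells of a type and less RNA per cell cannot be told apart.

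The same direction held gene by gene, with small changes. Among the 75 genes, 74 had a log2 change above 0, against 50.6% of all rows. Under quantile normalization Rpl10 also came out below 0 (-0.0072). In these 74 genes both libraries with doxycycline lay above both without, which was so for 26.7% of all rows. In Rps4y2 both lay below, as in 26.5% of all rows. The median log2 change (with minus without doxycycline, of normalized count + 1) was 0.24 over the ribosomal protein genes and 0.0024 over all rows. The 60S genes had a median of 0.24 and the 40S genes of 0.25. The fold change of the 74 genes ran from 1.08 to 1.32. The changes were also close to each other, with an SD across genes of 0.082 on the log2 scale against 0.317 over all rows. Their median SE was smaller too, 0.055 against 0.098, and the SD was not compared with rows of like level.

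Single genes seldom passed the test across all rows. By limma with Benjamini-Hochberg adjustment over 11747 rows, at 0.05, 5 ribosomal protein genes rose, against 0.579% of all rows called higher. They were Rpl36a, Rpl17, Rpl12, Rpl35a and Rpl5, all of the 60S subunit. None fell in limma, against 1.79% of all rows called lower and 2.37% called in either direction. At an unadjusted p under 0.05, 68 of the 75 were higher and 0 lower, against 9.58% and 11.5% of all rows. Another 36 genes had an adjusted p between 0.05 and 0.1. The threshold runs through a dense part of the list: Rpl5 lay just inside at an adjusted p of 0.0493, and Rpl3, Rps24 and Rps18 just outside at 0.0501. All 5 calls were lost without library 1, 2 or 8, and those of Rpl35a and Rpl5 also without library 7. Each of these fits leaves a lone library in 1 group, which is assumed to vary like the others. The number called higher also moved with the settings: 0 in limma without an intensity trend (55 at an unadjusted p under 0.05), 1 under quantile normalization (Rpl35a), 7 with scaling factors taken without these genes, 8 with TMM factors, 26 with robust empirical Bayes, and 73 (with 1 lower) under a replicate block that the labels do not give.

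**Figure D1:**
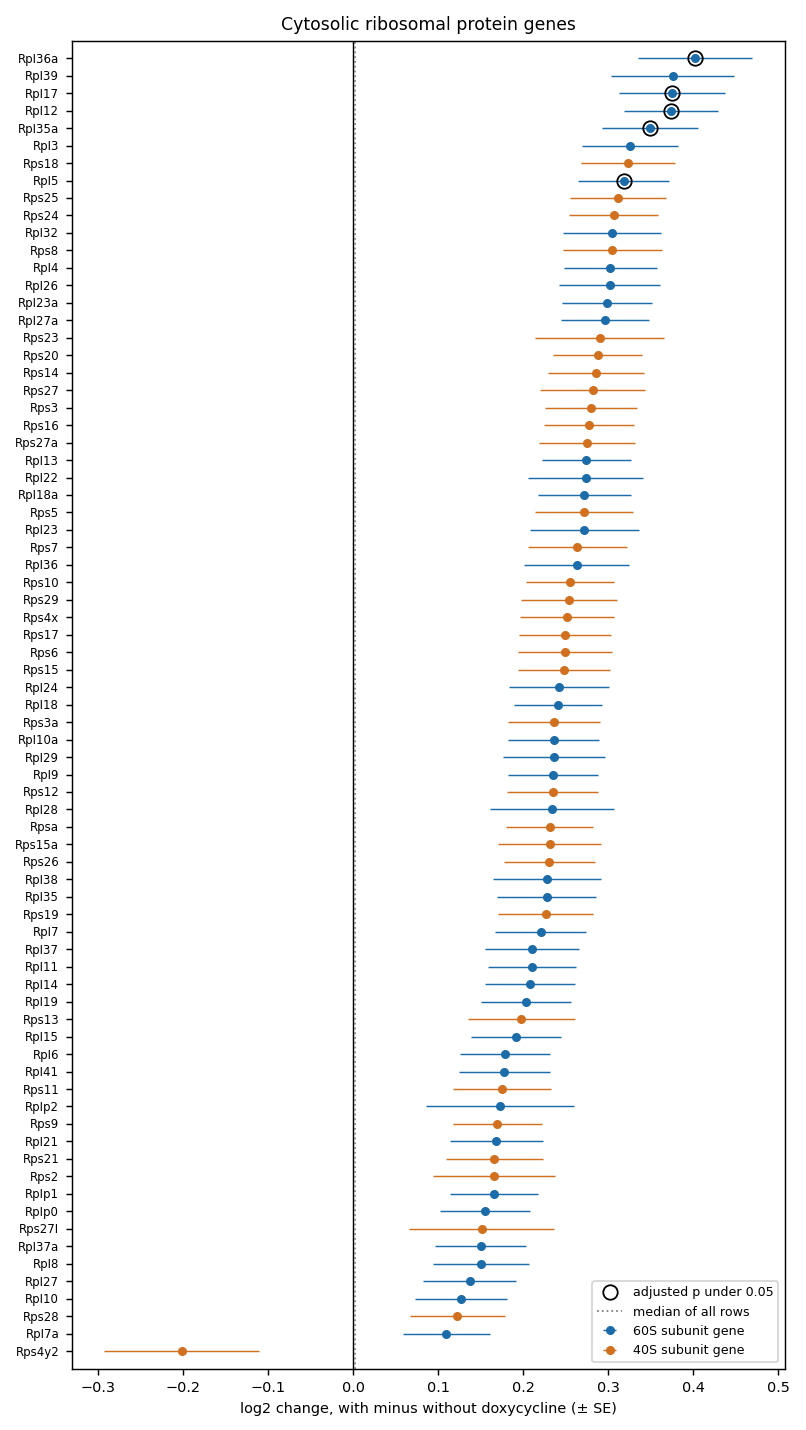
Log2 change of each of the 75 ribosomal protein genes, with minus without doxycycline (horizontal axis), with its SE as bars; blue marks 60S and orange 40S genes, rings mark an adjusted p under 0.05, and the dotted line the median of all 11747 rows. With the deposited scaling every gene except Rps4y2 lies to the right of 0 (under quantile normalization Rpl10 does not), most between 0.1 and 0.4, and the 5 ringed genes are all 60S.

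Markers of the cells in these cultures, labelled as motor neurons, were listed in both groups and differed in level. Over all rows limma called 0.579% higher and 1.79% lower, and 9.58% were higher and 11.5% lower at an unadjusted p under 0.05. Of 12 neuron markers 10 fell in limma, with summed normalized counts of 79853 and 64063 with doxycycline, against 160679 and 141877 without. Of 7 motor neuron markers 6 fell, among them Mnx1 and Isl1, and the sum was 4916 and 4182 with doxycycline, against 11135 and 10884 without. Lhx3 alone was on the other side (0.55 ± 0.17, adjusted p = 0.155). Of 8 markers of cycling cells none passed the limma test, 5 were higher at an unadjusted p under 0.05, and the sum was 63903 and 66514 with doxycycline, against 52369 and 58054 without. Of 8 neural progenitor markers none passed and 3 were higher unadjusted, with a sum of 33399 and 37279 with doxycycline, against 32594 and 33933 without. Median log2 changes were -0.86 for neuron, -1.63 for motor neuron, 0.26 for cycling cell and 0.33 for neural progenitor markers. Pluripotency markers (6 of 6 listed) and endoderm and mesoderm markers (5 of 8) had medians of -0.30 and -0.28 and no limma calls, with 0 and 1 gene lower unadjusted. The pluripotency sum was 2106 and 1558 with doxycycline, against 2507 and 1817 without, and that of endoderm and mesoderm 5912 and 11418 with, against 7494 and 11942 without. Of the 5 glial markers 2 are listed, and Slc1a3, which progenitors also express, rose by 0.52 on the log2 scale; the sum was 1935 and 1791 with doxycycline, against 1341 and 1308 without. No listed marker was at 0 in any library, and Afp, Apoa1, Pecam1, Gfap, Aqp4 and Sox10 are not listed. The part of neurons, progenitors and cycling cells in the ribosomal protein result was not tested.

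Rpl36a, a 60S protein near the exit site for transfer RNA, had the largest change. It had 13622 and 13021 normalized counts in libraries 2 and 8 with doxycycline, against 9660 and 10511 in libraries 1 and 7 without (log2 change 0.40 ± 0.067 SE, limma adjusted p = 0.0479). The group gap was wider than the distance between libraries of a group. Rpl17, whose protein lines the tunnel through which the new peptide leaves, had 30069 and 30695 counts with doxycycline, against 22501 and 24402 without (0.37 ± 0.062, adjusted p = 0.0479). Rpl12, which joins the stalk base where translation factors dock, had 35092 and 34909 counts with doxycycline, against 26329 and 27702 without (0.37 ± 0.056, adjusted p = 0.0389). In both genes library 1 was the lowest. Rpl35a, a Diamond-Blackfan anaemia gene, had 11924 and 12230 counts with doxycycline, against 9324 and 9632 without (0.35 ± 0.057, adjusted p = 0.0458). Rpl5 binds 5S ribosomal RNA and, when free, restrains the p53 regulator Mdm2. It had 38615.5 and 37659 counts with doxycycline, against 30133 and 31041 without (0.32 ± 0.054, adjusted p = 0.0493). In these 5 genes both libraries with doxycycline lay above both without, as in 26.7% of all rows, and the fold change reached 1.32.

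Start regions were read for the ribosomal protein genes that a RefSeq promoter table on GRCm38.p6 holds, 55 of the 75. The pyrimidine run CTTTCC, as at many TOP starts, was searched on the transcribed strand from 30 bases before to 50 after the annotated start. It was found in 15 of the 55 genes, 27.3%, against 4.36% of all 27025 genes in the table. On the other strand of the same window the shares were 1.82% and 4.23%. CCGGAAG, the core that ETS family factors bind, was searched on either strand in the whole 300 bases (250 before to 50 after) and was found in 23 genes, 41.8%, against 9.93% of all genes. AAGATGG, a core of the YY1 motif, was found on either strand in 14.5% of them and 7.28% of all genes, and TATAAA in 10.9% and 15.7%. The 27025 genes were neither limited to rows measured here nor matched for base composition. No start had CTTTCC and CCGGAAG sharing bases. The median log2 change was 0.24 in genes with CTTTCC and 0.24 in those without, and 0.23 in genes with CCGGAAG and 0.24 in those without. A match is a run of letters, not a shown binding site, and a missing match says only that these letters are not in the window.

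The starts of 4 of the genes that rose are shown first, 60 bases before to 30 bases from the annotated start, 5′ to 3′ on the gene's strand, with CTTTCC and CCGGAAG (or its reverse complement) in capitals. No sequence is shown for Rpl17. The windows are chrX:134585594-134585683 on the plus strand for Rpl36a, chr2:32961652-32961741 on the plus strand for Rpl12, chr16:33056422-33056511 on the plus strand for Rpl35a and chr5:107900468-107900557 on the plus strand for Rpl5, for RefSeq on GRCm38.p6. Of these, Rpl35a alone holds CTTTCC, while Rpl12, Rpl36a and Rpl5 have other pyrimidine runs and no capitals.
Rpl36a: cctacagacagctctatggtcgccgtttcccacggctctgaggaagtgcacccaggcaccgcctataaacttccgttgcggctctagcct
Rpl12: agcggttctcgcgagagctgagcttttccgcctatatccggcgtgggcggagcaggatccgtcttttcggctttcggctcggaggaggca
Rpl35a: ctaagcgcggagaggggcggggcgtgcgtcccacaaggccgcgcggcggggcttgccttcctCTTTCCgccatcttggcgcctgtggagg
Rpl5: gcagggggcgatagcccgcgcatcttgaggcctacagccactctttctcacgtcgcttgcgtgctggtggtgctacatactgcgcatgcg

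Another 4 starts, picked after the sequences were seen, show both motifs in place: chr11:114668520-114668609 on the plus strand for Rpl38, chr3:90213619-90213708 on the minus strand for Rps27, chr4:136053364-136053453 on the minus strand for Rpl11 and chrX:37085193-37085282 on the minus strand for Rpl39. Rpl38 holds CCGGAAG upstream and CTTTCC at its start, Rps27 has CTTTCC right at its start, and Rpl11 has the ETS core on the strand shown and Rpl39 on the other. Their changes (log2 0.23, 0.28, 0.21 and 0.38 in that order) did not pass the limma test.
Rpl38: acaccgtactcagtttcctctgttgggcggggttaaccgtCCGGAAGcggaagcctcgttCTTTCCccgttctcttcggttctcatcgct
Rps27: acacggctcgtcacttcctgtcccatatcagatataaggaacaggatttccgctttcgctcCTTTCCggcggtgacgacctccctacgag
Rpl11: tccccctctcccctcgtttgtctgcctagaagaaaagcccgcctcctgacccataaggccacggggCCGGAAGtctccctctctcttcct
Rpl39: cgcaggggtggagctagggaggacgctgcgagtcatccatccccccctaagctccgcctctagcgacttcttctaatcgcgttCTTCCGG

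The split by group was visible in each library. Across the 75 genes the highest value was in library 2 for 42, in library 8 for 32 and in library 1 for 1. The lowest was in library 1 for 56, in library 7 for 18 and in library 8 for 1. Rps4y2 is the exception on both sides. The median log2 difference was 0.27 from library 2 over library 1 and 0.21 from library 8 over library 7. Within groups it was -0.011 (library 8 minus 2) and 0.032 (library 7 minus 1). Over all rows each of these medians lay within 0.01 of 0. Genes with a large difference between libraries 2 and 1 also tended to have one between 8 and 7 (Pearson r = 0.77, Spearman rho = 0.64, n = 75 genes; 0.65 and 0.62 without Rps4y2). That is a description across genes that share libraries and depth, and genes are not independent replicates.

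**Figure D2:**
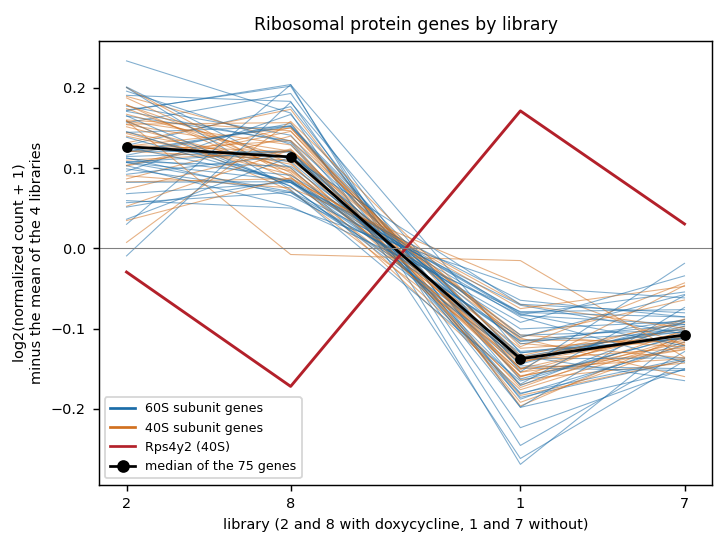
Log2(normalized count + 1) of each ribosomal protein gene minus its mean over the 4 libraries (vertical axis), for libraries 2 and 8 with and 1 and 7 without doxycycline; thin lines are genes, the black line their median and the red line Rps4y2. The lines drop together between libraries 8 and 1, and Rps4y2 runs the other way.

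Genes of the stalk, which recruits the GTPase factors of translation, had a wide range. The acidic stalk proteins and their scaffold were near the low end of the list. Rplp0, the scaffold, had 38883 and 37537.5 counts with doxycycline, against 34273 and 34332 without (log2 change 0.16 ± 0.053, adjusted p = 0.180). Rplp1, of the flexible stalk itself, had 28113 and 28128 counts with doxycycline, against 25123 and 25024 without (0.17 ± 0.051, adjusted p = 0.155). Rplp2 had 11831 and 13512 counts with doxycycline, against 10703 and 11755 without (0.17 ± 0.087, adjusted p = 0.323). None of the 3 passed the limma test. In each, both libraries with doxycycline lay above both without, as in 26.7% of all rows. Rpl12, their neighbour at the stalk base, did pass at 0.37, and the difference between it and them was not tested. The 4 stalk genes had a median of 0.17.

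Genes of the peptide exit tunnel region (Rpl4, Rpl17, Rpl19, Rpl23a, Rpl26, Rpl31, Rpl35 and Rpl39) had a median of 0.30, beside 0.24 for all 75 ribosomal protein genes, and Rpl17 alone passed the limma test. They ranged from 0.20 (Rpl19) and 0.23 (Rpl35), below the median of the 75, to 0.38 (Rpl39). Rpl31 is outside the name rule for its row and is counted with these for its role. Rpl39, a very short protein of the tunnel wall, had 14200.5 and 14526 counts with doxycycline, against 10460.5 and 11712 without (0.38 ± 0.072, adjusted p = 0.0636). It passed the test when library 7 was left out. Rpl3, at the peptidyl transferase centre, had 56029 and 53510.1 counts with doxycycline, against 42999 and 44394 without (0.33 ± 0.056, adjusted p = 0.0501).

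Rpl11 forms the 5S ribonucleoprotein with Rpl5 and likewise binds Mdm2. It had 27935 and 27824 counts with doxycycline, against 24044 and 24147.5 without (0.21 ± 0.052, adjusted p = 0.102). Rpl10, which is added late and closes the 60S subunit near the peptidyl site, had 35484 and 35802.5 counts with doxycycline, against 31996 and 33309 without (0.13 ± 0.054, adjusted p = 0.254). Rpl10 is among the 5 lowest signed changes, with Rpl7a (0.11 ± 0.051), Rps28 (0.12 ± 0.055), Rpl27 (0.14 ± 0.054) and Rps4y2 (-0.20 ± 0.091). Rpl7a, also of the 60S subunit, had 37928 and 37685 counts with doxycycline, against 35208 and 34868 without (adjusted p = 0.291). Rpl27, another 60S protein, had 14475 and 14821.5 counts with doxycycline, against 13192 and 13451 without (adjusted p = 0.230). None of these 5 passed the test. Rps4y2 was below in both libraries with doxycycline, as were 26.5% of all rows, and the others above, as were 26.7%. Rpl38, which in mice is needed for normal patterning of the axial skeleton, had 10753 and 10853 counts with doxycycline, against 8876 and 9583 without (0.23 ± 0.063, adjusted p = 0.129).

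In the 40S subunit no gene passed the limma test; 29 of 33 were higher and 0 lower at an unadjusted p under 0.05, against 9.58% and 11.5% of all rows. This was not stable: Rpsa, for example, passed with robust empirical Bayes (limma adjusted p = 0.0422) and under the replicate block (9.89e-06). The block fit has 1 residual degree of freedom and takes each variance from the trend alone. The p-value under the block therefore does not reflect the spread of Rpsa itself. Proteins at the entry and decoding side of the messenger channel (Rps2, Rps3, Rps15 and Rps23) had a median of 0.26. Those of the platform and the exit side (Rps14, Rps26, Rps28 and Rpsa) had 0.23. Rpsa, also known as the laminin receptor precursor, had 60865 and 60392 counts with doxycycline, against 51922 and 51375.5 without (0.23 ± 0.051, adjusted p = 0.0834). Rps28, on the exit side, had 15845 and 16442 counts with doxycycline, against 14683 and 14968.5 without (adjusted p = 0.278). Rps6, the substrate of S6 kinase, had 38268 and 38061.5 counts with doxycycline, against 31322 and 32922 without (0.25 ± 0.055, adjusted p = 0.0840). In each of these genes both libraries with doxycycline lay above both without, as in 26.7% of all rows.

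Rps19, the gene most often mutated in Diamond-Blackfan anaemia, had 20284 and 21049 counts with doxycycline, against 17410.5 and 17914 without (0.23 ± 0.056, adjusted p = 0.102). Over the 18 Diamond-Blackfan genes, Rpl31 included, the median was 0.25, beside 0.24 for all 75 ribosomal protein genes. Of the 18, Rpl35a and Rpl5 passed the limma test, against 0.579% of all rows called higher and 5 of the 75. Of the X-linked genes, Rpl36a, Rpl39 and Rps4x had changes of 0.40, 0.38 and 0.25 and Rpl10 of 0.13, with a median of 0.31. Rps4x, a 40S protein, had 38697 and 37338 counts with doxycycline, against 31299 and 32570 without (0.25 ± 0.056, adjusted p = 0.0840). The 75 genes sit on 19 chromosomes, 4 of them on X.

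Paralogues could be set side by side in a few places. Rps27 had 15976 and 14976 counts with doxycycline, against 12466 and 12984 without (0.28 ± 0.062, adjusted p = 0.0834). Its close relative Rps27l, a known p53 target, had 4255 and 3791 counts with doxycycline, against 3771 and 3469 without (0.15 ± 0.085, adjusted p = 0.370), and its groups are barely apart. Rpl22 had 12433 and 11382 counts with doxycycline, against 9648 and 10040.2 without (0.27 ± 0.068, adjusted p = 0.104). Its paralogue Rpl22l1, outside the name rule, had 1298 and 1321 counts with doxycycline, against 970 and 1127 without (0.32 ± 0.098, adjusted p = 0.149). The Rps4y2 row, with 1500 and 1358 counts with doxycycline, against 1724 and 1563 without (-0.20 ± 0.091, adjusted p = 0.278), was the only one of the 75 whose groups lay apart in the other direction. Ribosomal protein genes have many near-identical copies in the genome, and the labels do not state how reads with several matches were counted. Single genes are therefore uncertain.

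Levels are compared per kilobase of coding length. Rpl41, the shortest, had 387373 and 377786 normalized counts per kilobase with doxycycline, against 342444 and 334064 without. Its coding length of 75 bases is far shorter than the message, so this scale overstates it. Other genes with a short coding length, such as Rpl39 with 153 bases, may be overstated in the same way. Rps12, a 40S protein, followed with 91741 and 88541.5 per kilobase with doxycycline, against 76199 and 76962 without. Rpl39 had 92814 and 94941 per kilobase with doxycycline, against 68369 and 76548.5 without, and over the 4 libraries its range overlapped that of Rps12. The lowest was Rps23, at the decoding centre, with 5384 and 4984 per kilobase with doxycycline, against 4145 and 4330 without. Its mean of 4711 was far below the median of 45536 over genes with a coding length. How reads with several matches were counted is not stated, so this may not be the level of its message. The reason for the gap was not tested. Rps27l had 16884 and 15044 per kilobase with doxycycline, against 14965.5 and 13766 without. Rpl29, a 60S protein, had 26018 and 24599 with doxycycline, against 21174.5 and 21794 without. The other 68 genes with a coding length had means between 28323 and 80532 per kilobase.

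In counts, 37 of the 100 rows with the highest mean were ribosomal protein genes. Of the genes named by level per kilobase, Rpl41 had a change of 0.18 ± 0.054, Rps12 of 0.23 ± 0.053, Rps23 of 0.29 ± 0.076 and Rpl29 of 0.24 ± 0.060 (limma adjusted p = 0.149, 0.0881, 0.116 and 0.108). Rpl39 had 0.38 ± 0.072 and Rps27l 0.15 ± 0.085 (limma adjusted p = 0.0636 and 0.370). None of them passed the test. Across 74 genes the log2 change had a Spearman rho of 0.033 with mean count, -0.026 with coding length and 0.18 with count per kilobase, given as descriptions.

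**Figure D3:**
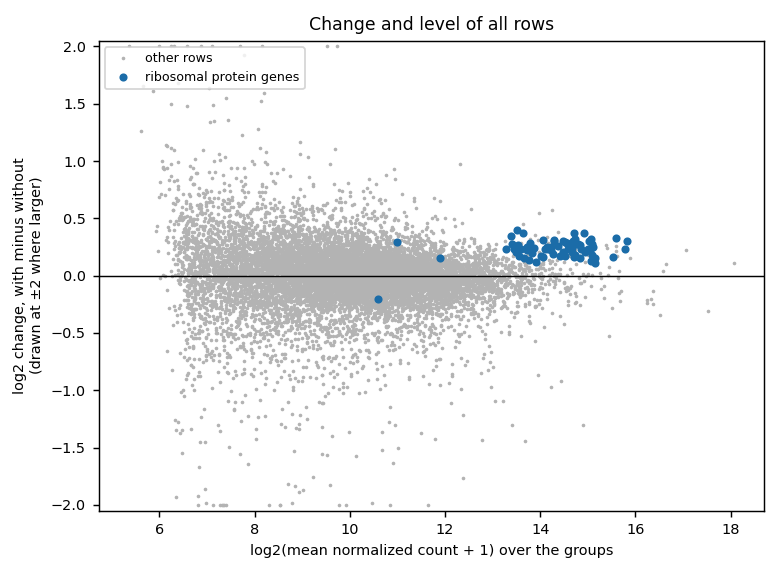
Log2 change with minus without doxycycline (vertical axis, drawn at ±2 where larger) against log2 of the mean normalized count + 1 (horizontal axis) for all rows, with ribosomal protein genes in blue. Most ribosomal protein genes sit at the right, above 0, in a tight band around 0.24, with Rps23, Rps27l and Rps4y2 at lower levels.

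Further ribosomal protein genes are not matched by name because their rows join other genes, lack a symbol or have another name. Rpl13a, Rpl30, Rpl31, Rpl34, Fau (a fusion of a ubiquitin-like protein with a 40S protein) and Gnb2l1 (the 40S-bound scaffold Rack1) had changes between 0.22 and 0.31. Gnb2l1 had 47281 and 46623 counts with doxycycline, against 37858 and 40064 without (0.27 ± 0.057, adjusted p = 0.0766). Fau had 20054 and 20554 counts with doxycycline, against 17200.5 and 17656 without (0.22 ± 0.054, adjusted p = 0.103). With these 6 added and Rps27l and Rps4y2 removed, a set chosen after the data were seen, 79 rows remained. Their median was 0.25. Rps4y2, whose groups lay the other way, was taken out by that choice, so the direction of the set is no further support.

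Other genes of the translation apparatus were described by counts and medians only, on lists chosen with results in view, beside the 0.0024 of all rows. In none of these lists did a gene pass the limma test, and unadjusted counts are given instead. Over all rows 9.58% were higher and 11.5% lower at an unadjusted p under 0.05, and a share near these is not a result about a list. A list of snoRNA host genes and other genes named for a TOP start had a median of 0.24, like that of the ribosomal proteins. In it 14 of 14 lay above 0, with 7 higher and 0 lower at an unadjusted limma p under 0.05. The starts of these genes were not read, and the lists below were not sorted by TOP start. The median is therefore no result about TOP genes as a class. Tpt1, a growth-related message with a classic TOP start, had 150005 and 142691 counts with doxycycline, against 124148 and 126721 without (0.22 ± 0.056, adjusted p = 0.106). Naca, of the nascent peptide complex, had a change of 0.20 ± 0.054 (adjusted p = 0.124) and the snoRNA host Snhg8 of 0.45 ± 0.12 (adjusted p = 0.118).

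Elongation and termination factors had a median of 0.048 over 12 genes, 2 higher and 0 lower at an unadjusted p under 0.05. Eef1b2, an exchange factor for elongation factor 1, had 22546 and 22625 counts with doxycycline, against 18257 and 19478 without (0.26 ± 0.059, adjusted p = 0.0862). The related subunits Eef1g and Eef1d had changes of 0.18 ± 0.058 and 0.13 ± 0.058 (adjusted p = 0.167 and 0.268). Initiation factors had a median of -0.0064 over 40 genes, 7 higher and 3 lower at an unadjusted p under 0.05. Among them Eif3m had 0.26 ± 0.072, Eif2a 0.23 ± 0.068 and the cap-binding protein gene Eif4e -0.29 ± 0.082 (adjusted p = 0.127, 0.147 and 0.132). Of the 40 initiation factors 19 lay above 0 and 21 below, against 74 and 1 of the 75 ribosomal protein genes.

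RNA polymerase I and its factors had a median of 0.065 over 16 genes, 2 higher and 2 lower unadjusted. Myc, a known activator of ribosome production, had 380 and 378 counts with doxycycline, against 516 and 465 without (-0.37 ± 0.11, adjusted p = 0.143). The initiation factor Rrn3 had -0.20 ± 0.073 and Taf1b 0.24 ± 0.082 (adjusted p = 0.205 and 0.187). Genes of the small subunit processome had a median of 0.055 over 45 genes, 4 higher and 2 lower unadjusted (no more than the shares over all rows), with Nop58 at 0.23 ± 0.066, Imp3 at 0.29 ± 0.087 and Bysl at -0.24 ± 0.074 (adjusted p = 0.136, 0.151 and 0.155). Large subunit assembly and export had 0.051 over 41 genes, 5 higher and 1 lower unadjusted, with Xpo1, the nuclear export receptor, at 0.22 ± 0.063, Rsl1d1 at 0.21 ± 0.062 and Wdr12 at 0.25 ± 0.073 (adjusted p = 0.134, 0.137 and 0.140). The medians of these lists lay between that of all rows and that of the ribosomal proteins.

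The mTOR pathway and its ribosomal effectors had a median of -0.077 over 19 genes, 2 higher and 4 lower unadjusted. Ddit4, an inhibitor of mTOR, had 2372 and 2416 counts with doxycycline, against 1544 and 1893 without (0.49 ± 0.11, adjusted p = 0.0848). Eif4ebp1, which holds Eif4e inactive until mTOR phosphorylates it, had 0.34 ± 0.087, and the kinase Rps6ka2 had -0.40 ± 0.10 (adjusted p = 0.113 and 0.115). Aminoacyl-tRNA synthetases had a median of 0.026 over 21 genes, 0 higher and 1 lower unadjusted; Hars, Fars2 and Farsa had -0.19 ± 0.073, 0.28 ± 0.12 and -0.17 ± 0.072 (adjusted p = 0.223, 0.251 and 0.261). Genes of nucleolar stress and p53 had a median of 0.14 over 14 genes, with 0 past an unadjusted p of 0.05. Ccng1, Btg2 and Sesn2, p53 targets, had 0.26 ± 0.11, 0.24 ± 0.11 and 0.16 ± 0.078 (adjusted p = 0.243, 0.275 and 0.302).

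Mitochondrial ribosomal protein genes, which build the separate ribosome of the mitochondrion, had a median of 0.050 over 76 rows, with 3 higher and 0 lower at an unadjusted p under 0.05. In 28 of the 76 both libraries with doxycycline lay above both without, and in 4 both lay below, against 26.7% and 26.5% of all rows. Mrpl23 had 1114 and 1224 counts with doxycycline, against 883 and 976 without (0.33 ± 0.096, adjusted p = 0.137). Mrps9 had 0.22 ± 0.068 and Mrps33 0.26 ± 0.10 (adjusted p = 0.157 and 0.224).

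**Figure D4:**
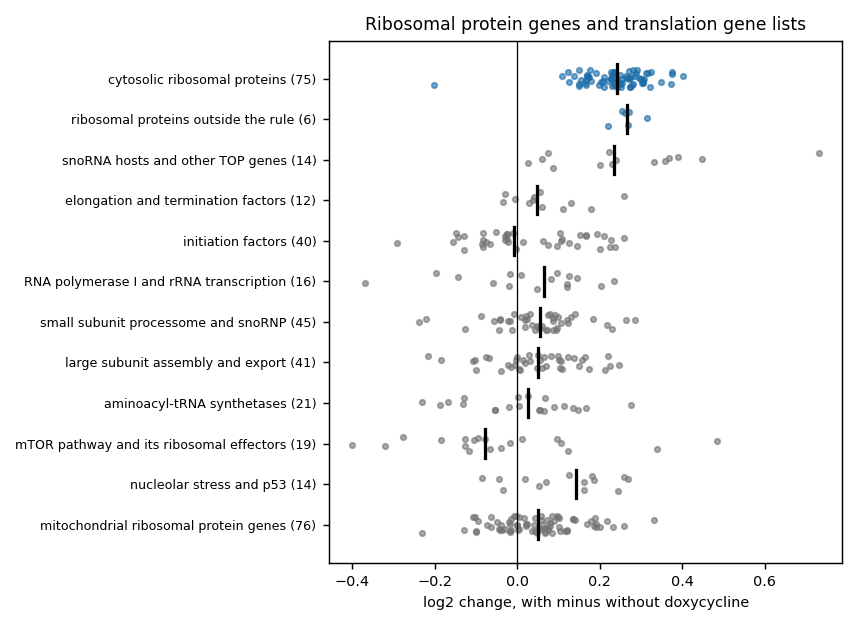
Log2 change with minus without doxycycline (horizontal axis) of genes in each list of the translation apparatus; dots are genes, black bars medians and the numbers in brackets the genes listed. The cytosolic ribosomal proteins and the chosen list of snoRNA hosts and other TOP genes centre near 0.24. The other lists centre between -0.08 and 0.14, apart from the ribosomal proteins outside the name rule. Starts were not read in these lists, and the other lists were not sorted by TOP start.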

How the data were processed

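TruSeq libraries of total RNA were sequenced on a HiSeq 2000, per the labels' protocols. CASAVA, TopHat2, HTSeq, DESeq and the build mm9 appear in the submitters' processing notes, without versions or roles. The deposited values are a signal per gene, normalized read counts that the authors obtained from counts and 1 size factor for each library, judging by the values. Reads in the listed rows were estimated from the smallest step in each column (values within 0.1 of a whole multiple). They were 22434755 and 30235763 with doxycycline (libraries 2 and 8) and 29905679 and 25190896 without (1 and 7). They are estimates, so no count model was fitted. Every ribosomal protein gene had at least 1272 estimated reads in each library, and each row of the table reaches at least 101 in some library. Columns were matched to groups by their names, not to single samples. Libraries of a group differed by more than counting noise (chi-square per degree of freedom 28.3 between 2 and 8, 26.4 between 1 and 7), so neither pair was taken as the same library listed again; this does not tell repeat preparations of a culture from separate cultures.

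Values were taken as log2(normalized count + 1). The filter, a row mean of at least 10, removed none. The groups were compared with limma 3.58.1 in R 4.3.3 (moderated test with intensity trend, two-sided, Benjamini-Hochberg over 11747 rows, threshold 0.05; 2 residual and 3.83 prior degrees of freedom). The step was tested on simulated data. Alternatives were quantile normalization, TMM factors, pseudocounts of 0.5 and 5, a minimum row mean of 50, no filter, scaling without the ribosomal protein genes, no trend, robust empirical Bayes, a replicate block and each library left out. Python 3.11.15 with scipy 1.17.1, numpy 2.4.6, pandas 2.3.3 and matplotlib 3.10.9 served for tables and plots.

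Among ribosomal protein genes, those named are all that passed the test, the 5 highest and 5 lowest signed changes, the 3 highest and 3 lowest levels per kilobase, and a set panel; in each other list, the 3 with the smallest p. Further genes were named after their values were seen. Members and lists were chosen with earlier results of these data known. Start sequences come from a RefSeq promoter table on GRCm38.p6, whose build differs from mm9. Coding lengths come from the GENCODE annotation, matched by RefSeq transcript, with the longest coding sequence taken for each row. Of the 75 rows, 6 join several accessions. Strand use in counting is not stated in the labels. The induced gene and some others are not reported here.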

Additional observations from a re-analysis of the deposited data

How the results depend on the processing

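The direction of the ribosomal protein genes held under the rescaling runs, with 1 exception, while the number of genes past the limma test did not. Only quantile normalization, TMM factors and scaling without these genes could turn a sign. The trend, robust, block and filter settings leave the log2 change as it is. In each gene the groups do not overlap, so another pseudocount or a left-out library cannot turn its sign. Of the 75 genes, 75 kept their sign in each alternative except quantile normalization, where 74 did and Rpl10 had a log2 change of -0.0072 (limma adjusted p = 0.967). The median log2 change, 0.24, was 0.21 under quantile normalization and 0.28 with scaling factors taken without these genes, which moved the median of all rows to 0.038; leaving out libraries gave 0.23 to 0.26. The 5 genes called higher became 1 under quantile normalization (Rpl35a), 8 with TMM factors, 0 without a trend (55 at an unadjusted limma p under 0.05) and 26 with robust empirical Bayes. Leaving out 1 library gave 0 to 4 calls among them, 0 without library 2, 8 or 1 (58, 58 and 47 at an unadjusted p under 0.05) and 4 without library 7, 3 of them among the 5. Over all rows, 68 higher and 210 lower became 27 and 78 without a trend, and 132 were higher with robust empirical Bayes. Leaving out 1 library gave 2 to 156 higher and 42 to 338 lower. A replicate block paired library 2 with 1 and 8 with 7. With it 73 ribosomal protein genes were higher and 1 lower, among 1636 higher and 1872 lower over all rows. That fit has 1 residual degree of freedom and an infinite prior. Each variance in it comes from the trend and not from the gene's own spread. The labels do not pair these libraries, and there are only 2 pairs. Deviations of libraries 2 and 1 from their group means had a Pearson r of 0.63 over all rows and 0.41 over the 75 genes. A positive r means that 2 varied with 1 and 8 with 7, which the main fit does not take into account. The reason for this shared variation was not tested. The cause of these differences in calls was not tested. The set of 79 genes, added after the data were seen, gave 5 higher, 0 lower and a median of 0.25. The lowest depth of a ribosomal protein gene was 1272 estimated reads in 1 library, and the 2 libraries per group limit the precision.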
